A study of Mus musculus with 23 samples.

Results

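Keratins are the intermediate filament proteins of epithelial cells. Every filament is built from obligate pairs of a type I and a type II keratin, and the pairs that a cell makes mark the kind of epithelium. Simple epithelia such as the lining of the colon are known for the type II keratin Krt8 with the type I keratins Krt18, Krt19 and Krt20, stratified epithelia for pairs such as Krt5 with Krt14, and hair and nail for keratins of their own. The keratin genes were taken as all genes of the table whose symbol is Krt followed by a number only, which gave 50 of 55449 genes. Of these, 26 encode type I and 24 type II keratins. By the epithelium in which they are best known, 5 were classed as simple epithelial, 17 as stratified, 14 as hair and nail, 9 as inner root sheath of the hair follicle and 5 as other. The keratin genes whose symbols end in a letter, such as Krt6a, were not members.

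The RNA came from colon of male Cdx2Apc f/w mice on the C57BL/6 background. These mice carry a floxed allele of Apc, the tumor suppressor that restrains β-catenin, and a Cre recombinase driven by the Cdx2 promoter, which is active in intestinal epithelium, so that tumors arise in the colon. All mice received a 60% high-fat diet (HFD) from 6 to 8 weeks of age, were treated with antibiotics and were colonized with Bacteroides fragilis 638R, which carried either an empty vector (BF BSHlow) or the gene of a bile salt hydrolase (BSH) from another strain (BF BSHhigh). There was no uncolonized group and no group with an intact Apc gene among these libraries. Normal colon after 2 weeks was sequenced from 4 BF BSHlow and 4 BF BSHhigh samples, non-tumor tissue after 12 weeks from 4 and 4, and colon tumors after 12 weeks from 4 and 3. The labels do not say whether libraries of different groups came from the same mice. The column headers of the 3 BF BSHhigh tumors repeat names of BF BSHlow tumors. They were assigned as a group because a supplementary table of the study holds the same values under that heading, and are called a, b and c here. Every direction between tumors of both kinds rests on that assignment.

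The libraries held between 12401388 and 17903008 expected counts, that is, RSEM's estimates of reads per gene. Levels are given as CPM, the usual scaling of counts to a common library size, with TMM factors over the 23 libraries, and levels of different genes are compared only as CPM per kilobase (kb) of the main transcript. Of the 50 keratins, 11 had no counts in any library and 13 more never exceeded 10 counts in a library. Since the tissue was analysed whole, fewer cells of a type and less RNA per cell cannot be told apart. The general epithelial marker Epcam was measured in all groups, with group means between 1032 and 1820 CPM. As defining markers of the colon, Lgals4 and Cdx1 averaged 4232 and 291 CPM in BF BSHlow non-tumor tissue and 568 and 36.7 CPM in BF BSHlow tumors.

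The members lie in 2 clusters, 25 on chromosome 11 and 25 on chromosome 15 (GRCm38, GENCODE M21). All genes of the chromosome 11 cluster encode type I keratins. The chromosome 15 cluster holds the type II keratins and, at its end, the type I gene Krt18 (15, 102028180 to 102032027, plus strand) beside its partner Krt8 (15, 101996698 to 102004482, minus strand). Upstream sequences were at hand for 35 of the 50 members. The 250 bases before the RefSeq start of transcription (GRCm38.p6) are shown for 6 keratins on which the results turn, 5′ to 3′ on the strand of the gene. Capitals mark matches on either strand to 4 short motifs, which are spelled out after the sequences. The sets shown are the neighbouring partners Krt8 and Krt18, the colonocyte keratin Krt20, and Krt23, Krt13 and Krt90, which were higher in tumors.
Krt8, chr15:102004343-102004592, minus strand: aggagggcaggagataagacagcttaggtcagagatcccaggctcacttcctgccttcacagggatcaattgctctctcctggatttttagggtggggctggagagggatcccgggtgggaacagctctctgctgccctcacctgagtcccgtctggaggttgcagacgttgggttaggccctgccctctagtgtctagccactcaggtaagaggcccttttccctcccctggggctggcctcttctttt
Krt18, chr15:102027966-102028215, plus strand: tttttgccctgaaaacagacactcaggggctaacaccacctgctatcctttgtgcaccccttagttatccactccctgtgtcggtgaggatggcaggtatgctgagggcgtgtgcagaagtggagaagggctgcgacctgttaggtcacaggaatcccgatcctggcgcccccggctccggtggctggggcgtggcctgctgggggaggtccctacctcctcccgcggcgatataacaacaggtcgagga
Krt20, chr11:99438154-99438403, minus strand: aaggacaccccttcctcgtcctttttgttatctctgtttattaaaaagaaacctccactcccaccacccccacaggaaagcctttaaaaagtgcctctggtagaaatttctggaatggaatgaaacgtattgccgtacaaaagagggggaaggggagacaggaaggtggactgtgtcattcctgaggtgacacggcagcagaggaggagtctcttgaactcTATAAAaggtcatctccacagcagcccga
Krt23, chr11:99493121-99493370, minus strand: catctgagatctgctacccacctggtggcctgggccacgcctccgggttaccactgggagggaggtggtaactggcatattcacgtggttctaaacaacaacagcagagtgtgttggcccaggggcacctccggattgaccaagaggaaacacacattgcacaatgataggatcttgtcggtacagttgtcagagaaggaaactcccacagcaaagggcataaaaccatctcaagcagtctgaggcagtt
Krt13, chr11:100121567-100121816, minus strand: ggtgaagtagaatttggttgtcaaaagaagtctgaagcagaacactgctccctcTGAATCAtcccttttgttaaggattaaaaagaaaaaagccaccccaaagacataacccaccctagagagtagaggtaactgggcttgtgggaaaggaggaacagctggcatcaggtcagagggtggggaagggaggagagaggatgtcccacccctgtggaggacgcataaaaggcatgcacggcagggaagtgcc
Krt90, chr15:101562951-101563200, minus strand: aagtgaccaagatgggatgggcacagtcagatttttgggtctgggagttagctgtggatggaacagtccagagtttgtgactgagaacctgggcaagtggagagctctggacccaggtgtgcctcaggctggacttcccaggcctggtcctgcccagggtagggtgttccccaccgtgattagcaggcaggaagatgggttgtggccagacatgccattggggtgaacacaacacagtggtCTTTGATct
The TATA box was searched as TATAAA and its letters were found in the window of Krt20, 24 to 29 bases before the start. They are present in 16 of the 36 keratin windows and in 12.4% of 32851 mouse promoter windows of the same length. The site of the factor AP-1 was searched as TGANTCA and occurred in 2 keratin windows, both of Krt13, whose second annotated start is not shown. The site of the TCF/LEF factors, the partners of β-catenin, was searched as CTTTGAT and occurred in 2 windows, of which that of Krt90 is shown. The GC box was searched as GGGCGG and occurred in 2 windows, neither of them shown. Among all promoter windows, 6.75% held the AP-1 letters, 3.21% the TCF/LEF letters and 32.7% the GC box letters. The windows of Krt8, Krt18 and Krt23 held none of the 4 motifs in this exact form. A match is a run of letters only, and no binding was measured.

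In normal and non-tumor colon, the keratin messages were almost entirely those of the 5 simple epithelial genes. In the 16 normal and non-tumor libraries, all other keratins together made up between 0.214% and 0.609% of the keratin CPM per kb. By group means the order of the levels was the same in these 4 groups: Krt8 was first, then Krt19, Krt20 and Krt18. The ranges of Krt20 and Krt18 overlapped in both non-tumor groups, and in BF BSHhigh replicate 2 Krt18 was above Krt20. At 2 weeks with BF BSHlow, for example, Krt8 averaged 3232 CPM per kb, Krt19 1540, Krt20 768 and Krt18 223. Krt7, a type II keratin of ductal and glandular epithelia, followed with 30.3 CPM per kb on a long main transcript, and a shorter transcript would raise that value. In tumors the order was different. In BF BSHlow tumors Krt8 (1054 CPM per kb), Krt19 (929), Krt18 (549) and Krt7 (145) came first, and in BF BSHhigh tumors Krt8 (1142), Krt19 (867), Krt18 (432) and Krt20 (118). In these levels per kb, the ranges of Krt8 and Krt19 overlapped within each tumor group, and those of Krt20 and Krt7 overlapped in BF BSHhigh tumors. The other keratins together reached between 3.51% and 16.8% of the keratin CPM per kb. The share of all counts that fell on keratins was 0.806% to 1.24% at 2 weeks, 0.688% to 0.983% in non-tumor tissue at 12 weeks and 0.502% to 0.816% in tumors.

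**Figure D1:**
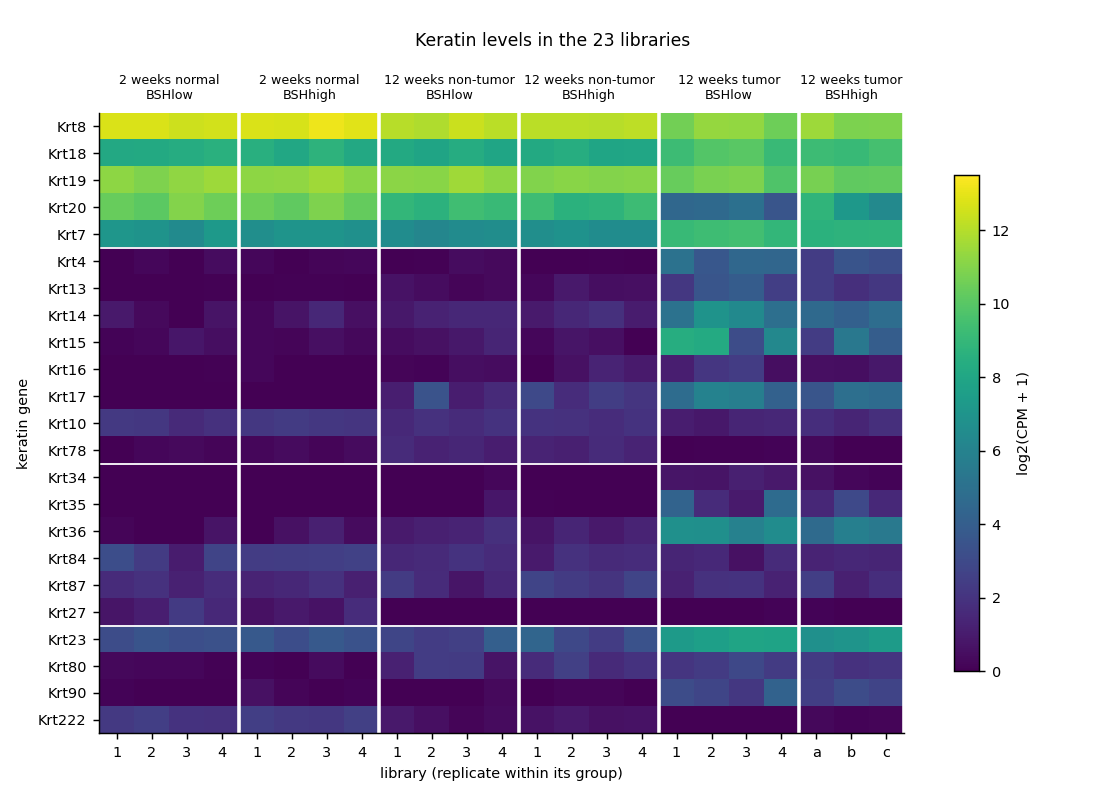
Level of 23 keratins (rows) in the 23 libraries (columns, by group) as log2(CPM + 1), from 0 (dark) to over 12 (yellow). Horizontal lines part the simple epithelial, stratified, hair or inner root sheath and other keratins. The 7 tumor columns at the right show levels of Krt4, Krt13, Krt14, Krt15, Krt17, Krt35, Krt36, Krt23 and Krt90 above those of the other columns.

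Tumors were compared with non-tumor tissue at 12 weeks in each colonization, from 1 fit over the 15 libraries of 12 weeks. The question was which keratins differ with the tumor state. Among the 22 keratins that passed the filter on low counts, 13 were higher and 3 lower in BF BSHlow tumors, and 13 were higher and 2 lower in BF BSHhigh tumors, where a call needed an adjusted p below 0.05 and a log2 difference of more than 1 in size. Over all 16455 genes tested, 16.7% were higher and 19.5% lower in BF BSHlow tumors, and 14.6% and 14.8% in BF BSHhigh tumors. TMM scaling called 2751 genes higher and 3205 lower with BF BSHlow and 2398 and 2433 with BF BSHhigh, whereas total count scaling called 3999 and 2510, and 3534 and 1807. The median log2 fold change was 2.90 over the keratins and 0.04 over all genes with BF BSHlow, and 1.95 and 0.04 with BF BSHhigh. Of the 22, 8 did not pass the filter among non-tumor libraries alone, so they entered through the tumors in which they were high. Among the 14 others, 6 were higher and 3 lower in BF BSHlow tumors, and 6 and 2 in BF BSHhigh tumors. Both comparisons called 12 of the same keratins higher and 2 lower. They share no libraries, but they come from 1 fit with a shared filter and a shared estimate of the spread. The calls are therefore not independent, and the share of all genes called alike in both was not computed.

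Among the simple epithelial keratins, the type I gene Krt18 and the type II gene Krt7 rose in tumors, the type I gene Krt20 fell, and the type II gene Krt8 fell in BF BSHlow tumors. Krt8, the main type II keratin of the colon, was at 4220, 3826, 5570 and 4441 CPM in BF BSHlow non-tumor tissue and at 1561, 2654, 2576 and 1463 CPM in BF BSHlow tumors. Its 4 tumor values all lay below the non-tumor values. The log2 fold change was -1.15 (SE 0.21, adjusted p = 2.67e-04, edgeR's quasi-likelihood test with Benjamini-Hochberg adjustment, used throughout), and with total count scaling it was -0.83, which did not pass the fold threshold. With BF BSHhigh, Krt8 was at 4378, 4449, 4259 and 4545 CPM in non-tumor tissue and at 2973, 1846 and 1890 CPM in tumors a, b and c. These groups did not overlap either, and the log2 fold change of -0.99 (SE 0.23, adjusted p = 0.00235) just missed the fold threshold. It passed with RLE scaling (-1.04), DESeq2 (-1.04) and limma-voom (-1.02), and with total count scaling it was -0.69. RSEM shared reads of Krt8 with other genes in 22 of the 23 libraries, so its counts are uncertain to that extent.

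Krt18, the usual type I partner of Krt8, moved the other way. It was at 290, 232, 328 and 242 CPM in BF BSHlow non-tumor tissue and at 602, 940, 1039 and 572 CPM in BF BSHlow tumors. With BF BSHhigh it was at 288, 340, 241 and 250 CPM in non-tumor tissue and at 603, 538 and 722 CPM in tumors. The groups did not overlap in either colonization, and the log2 fold changes were 1.51 (SE 0.20, adjusted p = 1.16e-05) and 1.14 (SE 0.21, adjusted p = 3.32e-04). Per kb, Krt8 messages outnumbered those of Krt18 by 9.61 to 19.6 times in the 16 normal and non-tumor libraries and by 1.82 to 3.62 times in the 7 tumors. Krt19, a type I keratin of simple epithelium and of crypt cells, averaged 2469 ± 410 CPM (SD, n = 4) in BF BSHlow non-tumor tissue and 1464 ± 472 CPM (SD, n = 4) in tumors. Its log2 fold changes of -0.77 (SE 0.21, adjusted p = 0.00447) and -0.61 (SE 0.22, adjusted p = 0.0315) did not reach the fold threshold in BF BSHlow or BF BSHhigh tumors.

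The balance between the types moved with these genes. Summed over all members per kb, type II messages were 1.01 to 1.75 times those of type I at 2 weeks and 1.12 to 1.29 times in 12-week non-tumor tissue. In tumors the ratio was 0.57 to 0.71 with BF BSHlow and 0.72 to 0.88 with BF BSHhigh. Every tumor library thus had fewer type II than type I messages, and every other library more. In the 12-week non-tumor tissue, the ratios of 1.26 to 1.29 with BF BSHhigh lay above those of 1.12 to 1.16 with BF BSHlow. These sums are descriptions of the members and were not tested.

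**Figure D2:**
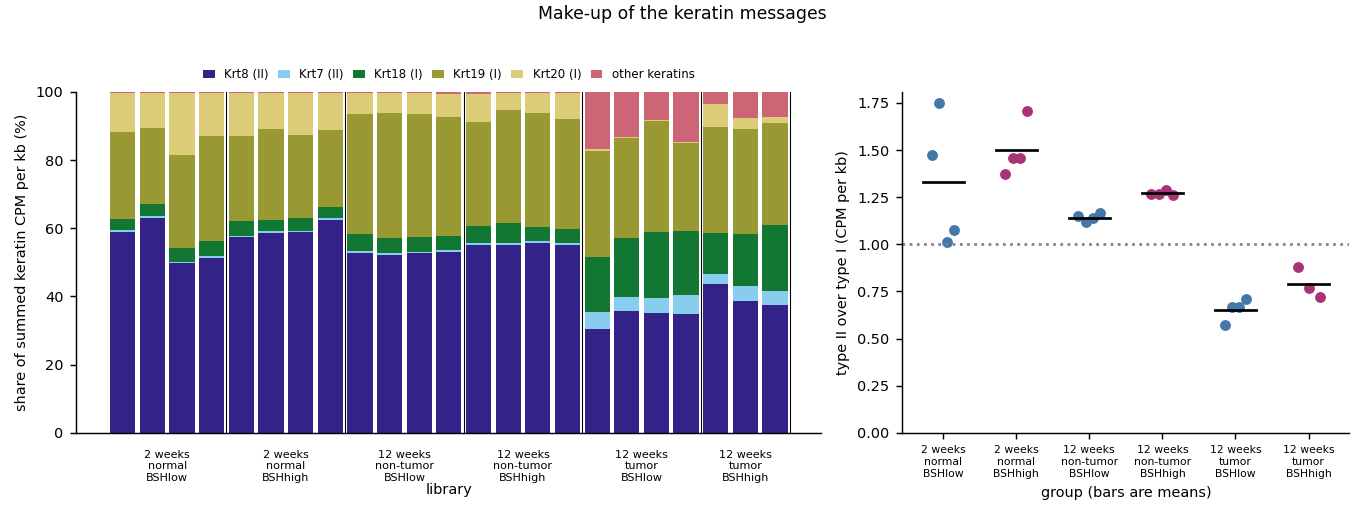
Left, share of each simple epithelial keratin and of all other keratins in the summed keratin CPM per kb of each library (I and II give the type). Right, summed type II over summed type I CPM per kb, with 1 point a library, bars at the group means and a dotted line at equality. The 7 tumors lie between 0.57 and 0.88, and the 16 other libraries between 1.01 and 1.75.

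Krt20 marks differentiated cells of the gut surface. In BF BSHlow tissue it was at 485, 406, 649 and 559 CPM in non-tumor samples and at 21.99, 23.9, 30.2 and 10.8 CPM in tumors, a log2 fold change of -4.61 (SE 0.49, adjusted p = 1.77e-06). With BF BSHhigh it was at 639, 399, 442 and 617 CPM in non-tumor tissue and at 456, 147 and 80.3 CPM in tumors a, b and c. Tumor a reached into the range of the non-tumor samples. The log2 fold change was -1.21 (SE 0.47, adjusted p = 0.0393). That call was lost without non-tumor replicate 1 (-1.11, adjusted p = 0.0802), without non-tumor replicate 4 (-1.12, adjusted p = 0.0766), without tumor b (-0.97, adjusted p = 0.149) and without tumor c (-0.80, adjusted p = 0.141), and without tumor a the value was -2.22 (adjusted p = 3.30e-04). Markers of differentiated colonocytes moved in the same comparison. All 5 genes of that list fell in BF BSHlow tumors and 4 of 5 in BF BSHhigh tumors, with the bicarbonate exchanger gene Slc26a3 at log2 fold changes of -11.36 and -4.54 (adjusted p = 6.02e-08 and 4.30e-05). All 5 goblet cell genes fell in both. The part of such cells in the level of Krt20 was not tested.

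Krt7 rose in both colonizations. It was at 94.8, 73.3, 90.7 and 97.5 CPM in BF BSHlow non-tumor tissue and at 556, 634, 679 and 497 CPM in BF BSHlow tumors. With BF BSHhigh the values were 102, 118, 95.1 and 92.1 CPM in non-tumor tissue and 387, 428 and 440 CPM in tumors. No tumor reached down to a non-tumor value. The log2 fold changes were 2.71 (SE 0.13, adjusted p = 5.67e-09) and 2.03 (SE 0.13, adjusted p = 1.24e-07). The library kit was stranded, but the strand setting of the counting is not given in the sources used here, and 10 members overlap genes on the opposite strand, namely Krt5, Krt7, Krt8, Krt10, Krt12, Krt32, Krt75, Krt76, Krt80 and Krt90.

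**Figure D3:**
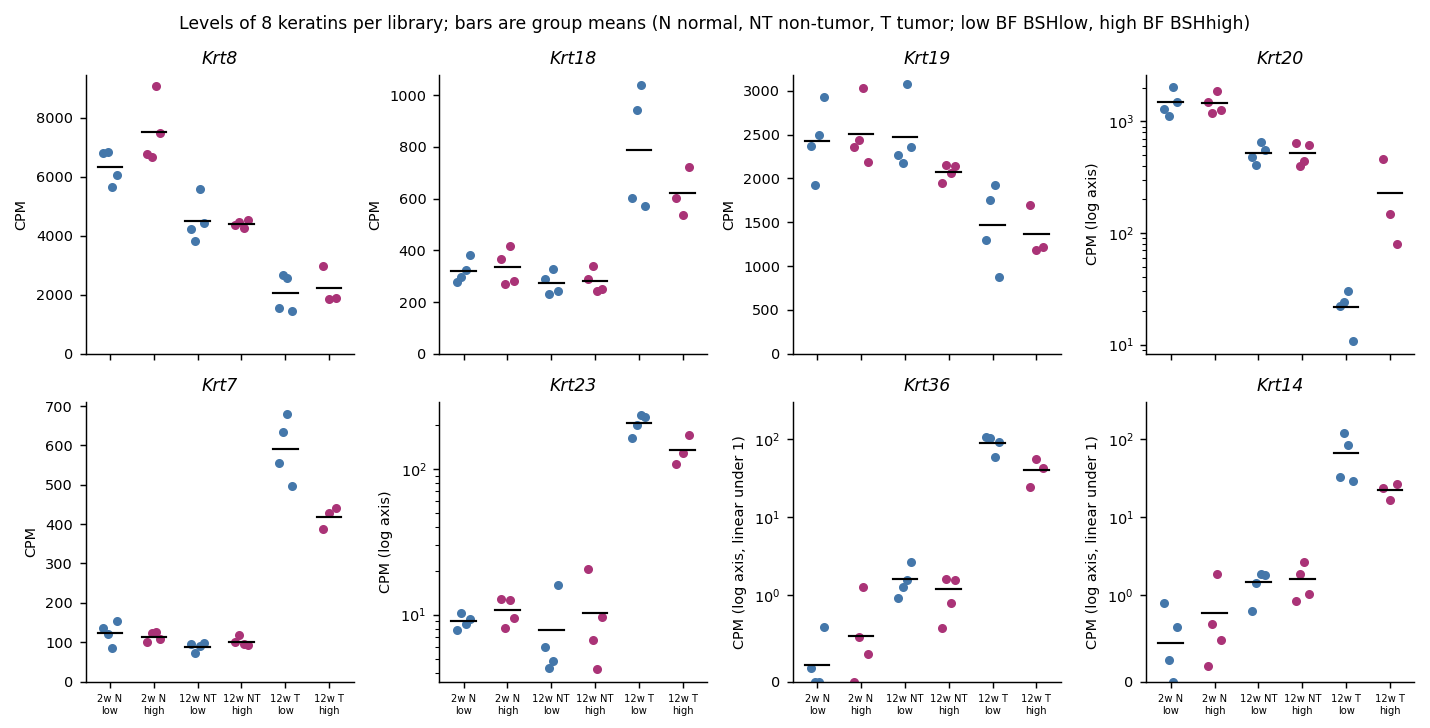
CPM of 8 keratins in each library (points) by group, with bars at the group means. Axes of Krt8, Krt18, Krt19 and Krt7 are linear from 0, those of Krt20 and Krt23 are logarithmic, and those of Krt36 and Krt14 are logarithmic above 1 CPM. The tumor points of Krt18, Krt7, Krt23, Krt36 and Krt14 lie above all other points, and those of Krt20 in BF BSHlow tumors lie below all others.

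Of the 17 keratins of stratified epithelia, 8 were tested. In BF BSHlow tumors 6 rose and 1 fell, and in BF BSHhigh tumors 5 rose and 1 fell. Over all genes tested, 16.7% were higher and 19.5% lower with BF BSHlow, and 14.6% and 14.8% with BF BSHhigh. Only 4 of the 8 (Krt10, Krt14, Krt17 and Krt78) passed the filter among non-tumor libraries alone. Of these, Krt14 and Krt17 rose and Krt78 fell in both colonizations. The others entered through the tumors. Krt14, the type I keratin of basal cells in stratified epithelia, was between 0.816 and 2.67 CPM in the 8 non-tumor libraries. In BF BSHlow tumors it reached 33.4, 122, 84.1 and 29.1 CPM and in BF BSHhigh tumors 23.5, 16.8 and 26.9 CPM. All 7 tumors were above all non-tumor samples, with log2 fold changes of 5.47 (SE 0.51, adjusted p = 5.28e-07) and 3.75 (SE 0.50, adjusted p = 2.79e-05). Its type II partner in skin, Krt5, had 5.01 summed counts in the 4 BF BSHlow tumors and none in the 3 BF BSHhigh tumors, beside 9 and 14 in the non-tumor groups. It passed no filter and was not tested. RSEM shared reads of Krt14 with other genes in 9 libraries.

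Krt15, a keratin of basal and progenitor cells, differed widely among tumors. It was at 338, 302, 7.82 and 78.0 CPM in BF BSHlow tumors and at 4.19, 42.0 and 14.7 CPM in BF BSHhigh tumors, against at most 1.61 CPM in any normal or non-tumor library. Its log2 fold changes were 7.74 (SE 1.18, adjusted p = 5.16e-05) and 5.82 (SE 1.29, adjusted p = 0.00164). With limma-voom neither was called (adjusted p = 0.0746 and 0.274), and without tumor b the BF BSHhigh value was 4.71 (adjusted p = 0.00969).

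Krt17, a keratin of wounded and activated epithelium, was at 26.3, 61.4, 53.6 and 17.4 CPM in BF BSHlow tumors and at 10.97, 29.2 and 25.8 CPM in BF BSHhigh tumors. Non-tumor tissue held between 1.09 and 9.85 CPM, so the 7 tumors lay above it. The log2 fold changes were 3.44 (SE 0.66, adjusted p = 3.96e-04) and 2.38 (SE 0.67, adjusted p = 0.00757), and without BF BSHlow non-tumor replicate 2, the sample at 9.85 CPM, the first was 4.75. Krt13, a keratin of oesophageal and other mucosal squamous layers, was at 3.48, 10.7, 14.02 and 4.74 CPM in BF BSHlow tumors and at 4.29, 2.50 and 3.58 CPM in BF BSHhigh tumors. Its non-tumor values did not exceed 0.872 CPM, and the log2 fold changes were 4.59 (SE 0.57, adjusted p = 7.16e-06) and 2.81 (SE 0.55, adjusted p = 6.42e-04). Krt4, its type II partner in those layers, was at 32.9, 11.7, 22.2 and 20.7 CPM in BF BSHlow tumors and at 4.19, 10.4 and 8.35 CPM in BF BSHhigh tumors. The BF BSHlow non-tumor group held 10 counts of Krt4 in all, and the log2 fold change was 6.99 (SE 0.60, adjusted p = 2.49e-07). With 1 count in the BF BSHhigh non-tumor group, the ratio of summed levels was 483, with an exact 95% interval of 86.3 to 19120 for counting error only.

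The low keratins of this class split. Krt16, known with Krt17 from wounded epithelium, rose in BF BSHlow tumors by 3.08 on the log2 scale (SE 0.89, adjusted p = 0.00749) to between 0.440 and 4.198 CPM. In BF BSHhigh tumors it was between 0.402 and 0.811 CPM, within the range of non-tumor tissue (log2 fold change -0.45, adjusted p = 0.694). RSEM shared reads of Krt16 in 9 libraries, in which its fractional counts complemented those of Krt14. In BF BSHlow tumor replicate 2, for example, Krt16 had 67.49 and Krt14 2380.51 counts. The values of Krt16 are uncertain to that extent. Krt78, a type II keratin of stratified epithelium, was between 1.10 and 2.18 CPM in all 8 non-tumor libraries and had 4 counts in each tumor group. It fell by 4.86 (SE 0.73, adjusted p = 4.32e-05) and 4.51 (SE 0.79, adjusted p = 2.58e-04) on the log2 scale. Tumor a held all 4 counts of its group, and without it Krt78 was at least 23.6-fold lower by a floor of 3 counts over the group. Krt10, a keratin of the upper layers of skin, did not pass the fold threshold in either colonization.

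**Figure D4:**
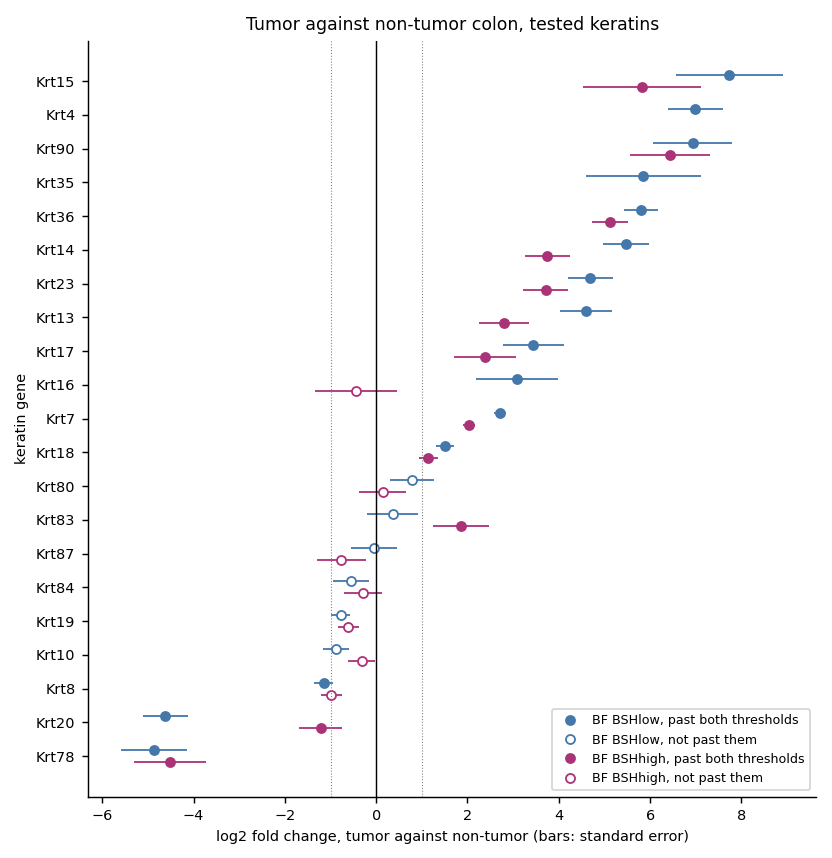
Log2 fold change of tumor against non-tumor tissue with its standard error for 21 of the 22 tested keratins, with BF BSHlow in blue and BF BSHhigh in purple. Filled points passed both thresholds, open points did not, and dotted lines mark the fold threshold. Values against groups with 3 or fewer counts (Krt34, and Krt35 and Krt4 with BF BSHhigh) are left out. Krt15 lies at the top and Krt20 and Krt78 lie at the bottom.

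Of the 14 hair and nail keratins, 6 were tested, and 3 rose in BF BSHlow and 4 in BF BSHhigh tumors. Among all genes tested, 16.7% were higher with BF BSHlow and 14.6% with BF BSHhigh. Only 3 of the 6 (Krt36, Krt84 and Krt87) passed the filter among non-tumor libraries alone, and of these Krt36 rose in both colonizations. The others, Krt34, Krt35 and Krt83, entered through the tumors. Krt36 had the highest group mean per kb of the hair and nail keratins in both tumor groups. It was at 0.964, 1.26, 1.57 and 2.65 CPM in BF BSHlow non-tumor tissue and at 109, 104, 59.6 and 92.4 CPM in tumors, a log2 fold change of 5.79 (SE 0.38, adjusted p = 3.02e-08). With BF BSHhigh it was at 0.625, 1.62, 0.909 and 1.57 CPM in non-tumor tissue and at 24.5, 55.4 and 43.4 CPM in tumors, a log2 fold change of 5.12 (SE 0.39, adjusted p = 3.32e-07). The lowest tumor value, 24.5 CPM, lay far above the highest non-tumor value, 2.65 CPM. Per kb, Krt36 stood at 54.5 and 24.6 CPM in the BF BSHlow and BF BSHhigh tumor groups.

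Krt35, its neighbour on chromosome 11, was at 18.6, 2.16, 0.954 and 25.7 CPM in BF BSHlow tumors and at 1.86, 7.01 and 1.96 CPM in BF BSHhigh tumors. It had no counts in the 8 libraries of 2 weeks. In non-tumor tissue its 12 counts with BF BSHlow were all in replicate 4, and BF BSHhigh had 1 count. The log2 fold change with BF BSHlow was 5.85 (SE 1.27, adjusted p = 9.85e-04) and 5.12 without tumor replicate 4. Without non-tumor replicate 4, no counts remain in that group, and the level in tumors was at least 181-fold higher when 3 counts over the group are taken as the floor. With BF BSHhigh the ratio of summed levels was 231 (exact 95% interval 41.1 to 9168, counting error only), and limma-voom did not call it (adjusted p = 0.056). Krt34 had 71.9 summed counts in BF BSHlow tumors against 3, a ratio of 18.03 (exact 95% interval 5.93 to 89.5, counting error only), and 16 in BF BSHhigh tumors against 0, which is at least 5.27-fold higher when 3 counts over the non-tumor group are taken as the floor. The same replicate 4 held all 3 non-tumor counts of Krt34. Krt83 passed the thresholds with BF BSHhigh only (log2 fold change 1.86, SE 0.62, adjusted p = 0.0193), from 37 counts against 10, and not without tumor a (adjusted p = 0.0593) or c (adjusted p = 0.0839). Krt32 had no counts in the 16 normal and non-tumor libraries and 40 and 28 in the BF BSHlow and BF BSHhigh tumors, but did not pass the filter of this fit. None of the 9 inner root sheath keratins was tested in tumors.

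Krt23, a type I keratin known from pancreatic and colon carcinoma cells, had the highest group mean per kb outside the simple class in both tumor groups, 131 and 86.4 CPM per kb. It was at 6.00, 4.30, 4.84 and 16.01 CPM in BF BSHlow non-tumor tissue and at 162, 199, 234 and 227 CPM in tumors. With BF BSHhigh it was at 20.5, 6.72, 4.24 and 9.58 CPM in non-tumor tissue and at 108, 128 and 170 CPM in tumors. The groups did not overlap, and the log2 fold changes were 4.69 (SE 0.50, adjusted p = 1.89e-06) and 3.72 (SE 0.49, adjusted p = 2.60e-05). Without BF BSHlow non-tumor replicate 4, the sample at 16.01 CPM, the first was 5.35, and without BF BSHhigh non-tumor replicate 1, the sample at 20.5 CPM, the second was 4.30. Krt90 was at 7.95, 6.00, 3.62 and 18.1 CPM in BF BSHlow tumors and at 4.66, 7.95 and 5.91 CPM in BF BSHhigh tumors, while both non-tumor groups held 4 counts. Its log2 fold changes were 6.93 (SE 0.87, adjusted p = 8.38e-06) and 6.43 (SE 0.88, adjusted p = 3.55e-05), and the first was 6.31 without tumor replicate 4. Non-tumor replicate 4 held all 4 counts of the BF BSHlow group, and without it Krt90 was at least 136-fold higher by the floor of 3 counts. Krt80, a type II keratin of differentiating epithelium, averaged 2.59 and 4.52 CPM in BF BSHlow non-tumor tissue and tumors, and its groups overlapped (log2 fold change 0.79, adjusted p = 0.162).

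The keratins that rose were not all highest in the same tumors. Among the BF BSHlow tumors, the highest pair of libraries was replicates 2 and 3 for Krt18, Krt7, Krt14, Krt17, Krt13 and Krt16. Krt16 shared reads with Krt14. The epithelial marker Epcam was also highest in that pair, at 826, 1219, 1230 and 854 CPM in replicates 1 to 4. The highest pair was replicates 1 and 4 for Krt35 and Krt90, and replicates 1 and 2 for Krt15 and Krt36. It was replicates 1 and 3 for Krt4, and replicates 3 and 4 for Krt34 and Krt23. These groupings were read from the values and were not tested. With 4 and 3 tumors, no correlation was computed.

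**Figure D5:**
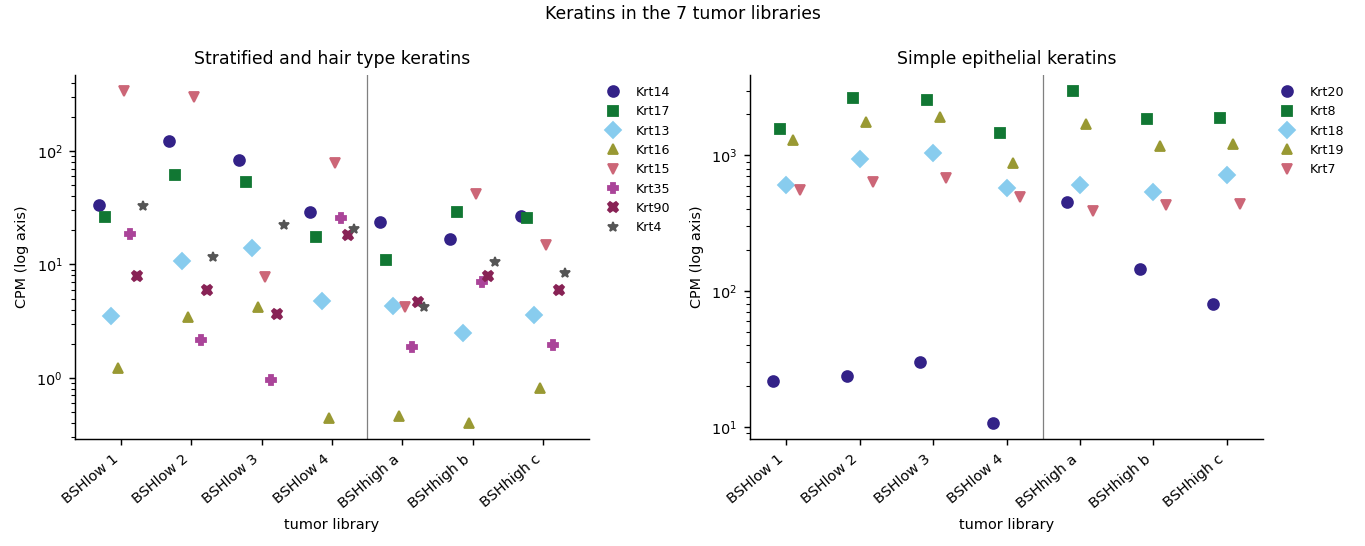
CPM on a log axis of 8 stratified, hair type and other keratins (left) and of the 5 simple epithelial keratins (right) in the 4 BF BSHlow and 3 BF BSHhigh tumors, spread sideways within a library so that points can be told apart. Krt15 spans 4.19 to 338 CPM, and the 3 Krt20 points of BF BSHhigh lie above the 4 of BF BSHlow.

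Genes that mark stratified squamous epithelium beside the keratins were set next to these changes. Of 14 such genes, 10 were tested, and 4 rose and 2 fell in each colonization. The shares over all genes tested were 16.7% higher and 19.5% lower with BF BSHlow, and 14.6% and 14.8% with BF BSHhigh. Tmprss11b and Dsg3 rose in both, Sprr1a and Ivl with BF BSHlow only, and Ly6d and Col17a1 with BF BSHhigh only. Of the 10, 5 passed the filter among non-tumor libraries alone. Of the genes that rose, only Sprr1a and Ly6d were among these 5. Tmprss11b, Dsg3 and Ivl averaged at most 0.146 CPM in either non-tumor group. Col17a1 averaged 0.411 and 0.517 CPM in BF BSHlow and BF BSHhigh non-tumor tissue. These 4 genes entered through the tumors in which they were high. The list holds Trp63, the defining transcription factor of basal squamous cells, whose group means in tumors were 0.0489 and 0.0755 CPM and which passed no filter. The desmosomal cadherin Dsg3 averaged 0.0807 CPM in BF BSHlow non-tumor tissue and 20.9 ± 5.51 CPM (SD, n = 4) in tumors (log2 fold change 7.86, adjusted p = 5.93e-07), and 8.58 ± 4.54 CPM (SD, n = 3) in BF BSHhigh tumors (log2 fold change 5.81, adjusted p = 1.19e-05). Krtdap, Sprr1b and Sprr3 were at or near 0 in all groups. The summed level of the list was 485 to 586 CPM in the 8 non-tumor libraries and 255 to 487 CPM in the 7 tumors, since its abundant members Perp and Serpinb5 were lower in tumors. The part of squamous cells in the keratin levels was not tested.

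The genes that tie keratins to junctions were called in both directions. Of 11 desmosome and plakin genes, all tested, 2 rose and 4 fell in BF BSHlow tumors, and 1 rose and 2 fell in BF BSHhigh tumors. Over all 16455 genes tested, 16.7% were higher and 19.5% lower with BF BSHlow, and 14.6% and 14.8% with BF BSHhigh. The counts were not tested against these shares. Periplakin (Ppl) rose in both, by 1.70 and 1.37 on the log2 scale (adjusted p = 3.16e-05 and 5.04e-04). Dystonin (Dst), a plakin that anchors keratins at hemidesmosomes, fell by 1.98 and 1.73 (adjusted p = 3.75e-08 and 8.08e-07). Of 11 other intermediate filament genes, 3 rose and 6 fell in each colonization. The mesenchymal filament gene Vim averaged 137 and 533 CPM in BF BSHlow non-tumor tissue and tumors (log2 fold change 1.96, adjusted p = 4.51e-04), and the muscle filament gene Des 546 and 8.11 CPM (log2 fold change -6.07, adjusted p = 3.83e-06). All 6 smooth muscle genes fell in both, with summed levels of 1513 to 8473 CPM in non-tumor tissue and 117 to 344 CPM in tumors. The part of muscle in these tissues in the keratin values was not tested.

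BF BSHhigh tumors were then compared with BF BSHlow tumors, the comparison that asks what the bacterial enzyme changes. None of the 22 tested keratins passed both thresholds by edgeR. Over the 15325 genes tested, 0.463% were higher and 0.0131% lower. At an unadjusted p under 0.05 with the same fold threshold, 1 keratin was higher and 7 were lower, where 4.72% and 0.77% of all genes were. DESeq2 called 1 higher (Krt20) and 3 lower (Krt36, Krt4 and Krt14), and limma-voom called none. Over all genes, DESeq2 called 3.19% higher and 0.294% lower, and limma-voom 0.261% and 0.00653%. The median log2 fold change was -0.53 over the keratins, of which 16 were below 0 and 6 above, and -0.029 over all genes. Krt34 had 14, 13, 27 and 17.94 counts in BF BSHlow tumors and 10, 4 and 2 in BF BSHhigh tumors. Krt16 had 25.11, 67.49, 87.82 and 9.03 counts against 9.04, 9 and 17.13. Both entered this test mainly through the BF BSHlow tumors in which they were higher, and the median includes them.

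Of the 6 keratins with the highest mean, Krt8, Krt19 and Krt18 had overlapping tumor groups. Krt8 differed by 0.11 (SE 0.27, adjusted p = 0.899), Krt19 by -0.11 (SE 0.27, adjusted p = 0.901) and Krt18 by -0.35 (SE 0.23, adjusted p = 0.582) on the log2 scale. Krt7 was lower in each BF BSHhigh tumor than in each BF BSHlow tumor, with a log2 fold change of -0.51 (SE 0.13, adjusted p = 0.119). Krt23 differed by -0.61 (SE 0.19, adjusted p = 0.211) and Krt15 by -3.17 (SE 1.24, adjusted p = 0.328), both with overlapping groups. Krt36, Krt4, Krt14 and Krt34 were also lower in every BF BSHhigh than in every BF BSHlow tumor, where Krt34 had entered mainly through the BF BSHlow tumors. None of these passed both thresholds by edgeR. The share of all genes with tumor groups apart in this way was not computed, so this separation has no background to be read against. Of the 10 tested markers of stratified epithelium outside the keratins, 1 was called lower, the protease gene Tmprss11b (log2 fold change -3.37, adjusted p = 0.0481, group means of 0.113 and 1.21 CPM).

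Krt20 stood apart in this comparison, and was picked out after its values were seen. The 3 BF BSHhigh tumors, at 456, 147 and 80.3 CPM, lay above the 4 BF BSHlow tumors, at 10.8 to 30.2 CPM. The log2 fold change of 3.38 (SE 0.59) missed the threshold with an adjusted p of 0.0558. It passed without tumor c (3.79, adjusted p = 0.0208), with no filter on low counts (adjusted p = 0.0124), with DESeq2 (adjusted p = 8.29e-05) and in the fit over the 15 libraries of 12 weeks (adjusted p = 0.00125), and over all alternatives the adjusted p lay between 8.29e-05 and 0.137. Without tumor a the value was 2.37 (adjusted p = 0.0875). The difference of the BSH effect between tumor and non-tumor tissue was tested directly by the interaction term. Of the 22 keratins tested, 1 passed there, against 0.972% higher and 0.00608% lower of 16455 genes, and it was Krt20 (log2 3.40, SE 0.63, adjusted p = 0.0191). That call was lost without BF BSHhigh non-tumor replicate 3 (adjusted p = 0.0513) and with limma-voom (adjusted p = 0.101), and without tumor a the value was 2.41 (adjusted p = 0.0301). This interaction shares its tumor and non-tumor libraries with the other 12-week comparisons.

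Some markers of differentiated cells moved with Krt20 and others did not. In tumors a, b and c, Slc26a3 was at 39.1, 15.7 and 3.43 CPM, the mucin gene Muc2 at 1117, 306 and 145 CPM and Fcgbp, a mucus protein gene of goblet cells, at 1157, 524 and 141 CPM. In the BF BSHlow tumors these genes did not exceed 0.491, 33.5 and 43.7 CPM. Tumor a was the highest in all of them and in Krt20, and tumor c the lowest. Car1, the colonocyte gene of the list with the highest mean in these tumors, did not differ (log2 fold change 0.0035, adjusted p = 0.9985). It was at 115, 38.9 and 46.7 CPM in tumors a, b and c and between 33.8 and 109 CPM in BF BSHlow tumors. In Car1 and the colonocyte gene Car4, tumor b was the lowest of a, b and c. Of 5 colonocyte genes, 2 were called higher in BF BSHhigh tumors, and of 5 goblet cell genes also 2. In the interaction test, 3 of the colonocyte and 4 of the goblet cell genes passed. The summed goblet cell list was 493 to 4208 CPM in BF BSHhigh and 49.3 to 110 CPM in BF BSHlow tumors, and the summed colonocyte list 71.6 to 274 CPM and 38.3 to 117 CPM. How much of the Krt20 level came with such cells was not tested.

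Without a tumor, the BSH comparison showed no called keratin. In non-tumor tissue at 12 weeks, 14 keratins were tested and none passed by edgeR, DESeq2 or limma-voom. Here edgeR called 0% of 14934 genes in either direction, and DESeq2 called 0.301% higher and 0.0937% lower. At an unadjusted p under 0.05 and with the fold threshold, 1 was higher: Krt87, a hair keratin, with 131.9 and 289 summed counts in BF BSHlow and BF BSHhigh tissue, which was picked out after its values were seen. Over all genes, 0.971% were higher and 0.455% lower at that threshold. The 6 most abundant keratins had log2 fold changes of -0.039 (Krt8, SE 0.12, adjusted p = 0.945), -0.26 (Krt19, SE 0.12, adjusted p = 0.557), -0.0080 (Krt20, SE 0.19, adjusted p = 0.994), 0.028 (Krt18, SE 0.14, adjusted p = 0.97), 0.18 (Krt7, SE 0.11, adjusted p = 0.671) and 0.39 (Krt23, SE 0.56, adjusted p = 0.876). Among these 6, only Krt19 had groups that did not overlap. It was at 2269, 2176, 3074 and 2355 CPM with BF BSHlow and at 1947, 2157, 2056 and 2137 CPM with BF BSHhigh, and the highest BF BSHhigh value lay just under the lowest BF BSHlow value. The share of all genes with non-tumor groups apart in this way was not computed, so this separation has no background either.

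At 2 weeks, 11 keratins were tested and none passed by edgeR, DESeq2 or limma-voom, also at an unadjusted p under 0.05 with the fold threshold. Over all 13753 genes tested, 0.00727% were higher and 0% lower. The log2 fold changes of the 6 most abundant keratins were between -0.13 (Krt7, SE 0.16, adjusted p = 0.929) and 0.24 (Krt23, SE 0.18, adjusted p = 0.867). Krt8 was at 6796, 6836, 5641 and 6043 CPM with BF BSHlow and at 6772, 6664, 9081 and 7491 CPM with BF BSHhigh, with overlapping groups (log2 fold change 0.24, SE 0.16, adjusted p = 0.839). Krt20 averaged 1481 ± 395 CPM (SD, n = 4) and 1457 ± 303 CPM (SD, n = 4), a log2 difference of -0.031 (SE 0.21, adjusted p = 0.99). Krt19 and Krt18 differed by 0.038 (SE 0.16, adjusted p = 0.982) and 0.054 (SE 0.16, adjusted p = 0.972).

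The 8 non-tumor libraries of 12 weeks were compared with the 8 normal libraries of 2 weeks over both colonizations. Age, time on diet, time of colonization and the kind of tissue sampled change together here and cannot be told apart. Of 17 keratins tested, 5 were higher and 4 lower at 12 weeks, against 18.5% higher and 8.02% lower of 15533 genes. None of the 5 passed the filter on low counts among the 2-week libraries alone, so they entered through the 12-week libraries in which they were high, and 2 of the 4 (Krt222 and Krt27) did not pass among the 12-week libraries alone. Of the 9 keratins that passed in both alone, none was higher and 2 were lower. Krt20 fell by 1.49 on the log2 scale (SE 0.15, adjusted p = 7.21e-07), from between 1114 and 2028 CPM to between 399 and 649 CPM, and it was the only simple epithelial keratin past both thresholds. Krt8 was lower in every 12-week than in every 2-week library, with a log2 fold change of -0.63 (SE 0.096, adjusted p = 3.69e-05) short of the fold threshold. Krt222, a type I gene, fell by 2.82 (SE 0.27, adjusted p = 3.82e-07), from 2.74 to 4.81 CPM down to 0.136 to 0.890 CPM. Krt84, a hair keratin, fell by 1.14 (SE 0.30, adjusted p = 0.0038) with overlapping groups, and its value was -0.96 without BF BSHlow replicate 1 of 2 weeks. Krt27, of the inner root sheath, had 147 counts over the 8 libraries of 2 weeks and none at 12 weeks, which is at least 60-fold lower when 3 counts over the group are the floor.

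Of the genes that were higher at 12 weeks, Krt17 had no counts in any 2-week library and 497 over the 8 non-tumor libraries, which is at least 135-fold higher by the same floor. Krt80 rose by 4.37 (SE 0.55, adjusted p = 5.57e-06), from 0 to 0.297 CPM up to 0.645 to 4.86 CPM, and Krt78 by 3.08 (SE 0.35, adjusted p = 1.86e-06). Both sets of ranges were apart. Krt36 and Krt14 rose by 2.00 (SE 0.59, adjusted p = 0.00756) and 1.33 (SE 0.48, adjusted p = 0.0242) with overlapping groups. Without BF BSHlow replicate 4 of 2 weeks Krt36 was at 2.89, without BF BSHhigh replicate 3 of 2 weeks Krt80 was at 5.16, and without BF BSHhigh non-tumor replicate 3 Krt14 was not called (1.16, adjusted p = 0.0562). Some tissue markers also differed between these times. The summed smooth muscle list was 7.08 to 206 CPM at 2 weeks and 1513 to 8473 CPM at 12 weeks, the fibroblast list 39.5 to 216 CPM and 284 to 3212 CPM, and the colonocyte list 11690 to 23630 CPM and 1396 to 3990 CPM, mostly through Car1, a carbonic anhydrase gene of colonocytes. Of the 5 colonocyte genes, 2 were called lower and none higher, with a median log2 fold change of -0.17 over the list. Of the 5 goblet cell genes, 1 was higher and 1 lower. The part of these tissues in the keratin values was not tested.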

How the data were processed

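Keratins were measured by RNA-seq of whole colon tissue in 23 libraries of 6 groups. Reads were trimmed (Cutadapt), mapped to the mm10 genome (STAR) and quantified (RSEM) by the authors, with versions not given in the sources used here, and the authors deposited expected counts per gene, not normalized. Of the values 4.24% were not whole. Labels and methods differ on the RNA-seq kit (total RNA or mRNA). Counts were rounded, and 1 gene was left out because a cell holds text. Each comparison was fitted over all genes that passed filterByExpr with edgeR 4.0.16 (TMM, quasi-likelihood test, Benjamini-Hochberg), after tests on simulated data. The 12-week tumor against non-tumor and interaction fits used 15 libraries. A call needed an adjusted p below 0.05 and a log2 difference of more than 1 in size. Alternatives used RLE or total count scaling, other filters, DESeq2 1.42.0, limma 3.58.1 (voom), other sets of libraries, a replicate block and each library left out. Total count scaling was added after the data were seen.

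Values per group are given for members with a mean of 5 CPM or more in a group, and fold changes for called members and the 6 most abundant in each BSH comparison. A few uncalled fold changes (Krt8, Krt10, Krt16, Krt19, Krt80 and Krt20) were added after their values were seen. The members and gene lists were chosen with earlier results of these data known. Replicates differed by more than sampling noise (chi-square per degree of freedom 16.6 to 126 over 33 pairs), and where nothing names separate mice, p-values measure the spread between these samples. Intervals and floors cover counting error only.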

Additional observations from a re-analysis of the deposited data

Results flagged for a closer look

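The effect of BSH on Krt20 differed between tumor and non-tumor tissues by 3.4 on the log2 scale in the interaction test, the only keratin for which this test passed. Over all 16455 genes, 0.972% passed it as higher and 0.00608% as lower. The call was lost with limma-voom and without BF BSHhigh non-tumor replicate 3. In non-tumor tissues the log2 fold change of BF BSHhigh against BF BSHlow was -0.0080 (SE 0.19), and in tumors it was 3.38 (SE 0.59) with the 3 BF BSHhigh tumors above the 4 BF BSHlow tumors. The tumor value did not pass both thresholds by edgeR. Of 5 goblet cell and 5 colonocyte genes, 2 each were called higher in these tumors. The summed goblet cell list did not overlap between the tumor groups (493 to 4208 CPM against 49.3 to 110 CPM), the summed colonocyte list did (71.6 to 274 CPM against 38.3 to 117 CPM), and the part of such cells in the Krt20 value was not tested. Among 38 sets of 4 libraries with a mean of 5 CPM or more for a keratin, none held a library far from the others by Dixon's test on log2(CPM + 1). The test was made on sets of 4 only. The 3 BF BSHhigh tumors on which the Krt20 value rests, tumor a among them, were therefore not covered by it.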

How the results depend on the processing

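Of the 41 called fold changes, 32 passed both thresholds under every alternative in which the gene was tested. Over all 41 there were 696 alternative values, of which 679 kept the call, 17 did not and none changed sign. The filter left Krt34, Krt16 and Krt83 untested in some alternatives. With BF BSHlow, Krt34 was tested in 15 and Krt16 in 14 of 16 alternatives. With BF BSHhigh, Krt34 and Krt83 were each tested in 12 of 14. In tumors, BF BSHhigh against BF BSHlow, the count of higher keratins was 1 in place of 0 with no filter on low counts, with DESeq2 and in the fit of 15 libraries, and the count of lower ones 3 in place of 0 with DESeq2. In BF BSHhigh tumors against non-tumor tissue, the count of lower keratins was 1 with total count scaling and in the fit of the 7 BF BSHhigh libraries and 4 with no filter, in place of 2, and 3 with RLE scaling, DESeq2 and limma-voom, where Krt8 passed too. The interaction count was 0 in place of 1 with limma-voom, and the count of higher keratins at 12 weeks was 9 in place of 5 with no filter on low counts. Total count scaling moved the median log2 fold change of all genes from 0.04 to 0.37 (BF BSHlow) and 0.34 (BF BSHhigh) in tumors and from 0.01 to 0.27 at 12 weeks. Under it, Krt8 in BF BSHlow tumors was at -0.83, Krt20 in BF BSHhigh tumors at -0.93 and Krt84 at 12 weeks at -0.89, none past both thresholds. The cause was not tested.

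With each library left out in turn, the counts of higher and lower keratins ranged from 0 to 1 and 0 to 0 in BF BSHhigh against BF BSHlow tumors, stayed at 0 in both comparisons without tumors, were 13 to 13 and 3 to 4 in BF BSHlow and 13 to 13 and 1 to 4 in BF BSHhigh tumors against non-tumor tissue, 0 to 1 and 0 to 0 for the interaction, and 4 to 5 and 3 to 4 at 12 weeks. Uncalled fold changes of BF BSHhigh against BF BSHlow changed sign in some of these fits. Their ranges were -0.15 to 0.26 for Krt8 and -0.30 to 0.047 for Krt19 in tumors, and in non-tumor tissue -0.11 to 0.071 for Krt8, -0.11 to 0.10 for Krt20, -0.081 to 0.12 for Krt18 and -0.19 to 1.02 for Krt23. At 2 weeks they were -0.068 to 0.14 for Krt19, -0.17 to 0.16 for Krt20 and -0.072 to 0.15 for Krt18, and with total count scaling Krt19 was at -0.040 and Krt18 at -0.027.

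Same-numbered libraries did not deviate together. For BF BSHlow non-tumor tissue and tumors the correlations were -0.0834 to 0.158, with 2 of 4 pairs over 0.1, and in no other pair of groups did every pair exceed it. With the replicate block, 12 keratins were higher and 3 lower in BF BSHlow tumors, 5 and 4 at 12 weeks, and 0 in the BSH comparisons of non-tumor tissue and normal colon. RLE scaling moved none of 84 mean levels by more than 1 SD. Depth limits the low keratins, whose fold changes rest on few counts in non-tumor tissue.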
